A study of Mus musculus with 8 samples.

Results

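The HSP70 family and the related HSP110 chaperones were described across the 4 groups of an experiment on bone marrow-derived macrophages. The members were taken by gene symbol as Hspa1a, Hspa1b, Hspa2, Hspa4, Hspa4l, Hspa8, Hspa9, Hspa13, Hspa14 and Hsph1, which leaves out Hspa5, the HSP70 of the endoplasmic reticulum. Of these 10 genes, 9 matched a gene among the 22165 in the count table, and all 9 were among the 11079 genes that passed the filter on low counts. The lowest level of any of the 9 in any library was 2.10 CPM (counts relative to the TMM-scaled library size), so none passed the filter through its high group alone. Hspa14 (ENSMUSG00000109865) had no row under its identifier and was not analysed here. The overlapping gene model Gm45902 (ENSMUSG00000051396) had a row, which was not taken as Hspa14.

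The cells came from C57BL/6 mice, per the labels, and were grown from bone marrow for 7 days in medium with M-CSF, the growth factor that directs marrow cells to the macrophage fate. The 4 groups were Nrf2-/- cells given 250 µM dimethyl itaconate (DI) for 12 h, untreated Nrf2-/- cells, wild-type cells given DI in the same way, and untreated wild-type cells, with 2 libraries in each group. NRF2, encoded by Nfe2l2, is the transcription factor that raises antioxidant and detoxifying genes when electrophiles modify its inhibitor KEAP1, and DI is an electrophilic, membrane-permeable derivative of the macrophage metabolite itaconate. The knockout mice were bought from a commercial breeder, and no label gives the age or sex of the mice. No label states whether both libraries of a group derive from different mice or cultures; the p-values therefore reflect the library-to-library spread, possibly only a technical one.

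HSP70 chaperones bind short hydrophobic stretches of unfolded proteins and release them in a cycle driven by ATP. HSP40 (J-domain) proteins bring clients and trigger hydrolysis, while nucleotide exchange factors, among them the HSP110 proteins and the BAG proteins, open the nucleotide pocket and release the client. When unfolded proteins accumulate, or when reactive compounds modify cysteines, the heat shock factor HSF1 is released from chaperones, binds heat shock elements and transcribes the inducible members. The constitutive members fold new proteins and serve import into organelles in all cells.

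Total counts ranged from 5554288 to 15680671 per library, and mitochondrial transcripts took 1.02 to 2.10% of counts. Nfe2l2 averaged 77.9 ± 14.4 CPM in knockout DI cells and 358 ± 83.3 CPM in wild-type DI cells, and 46.6 ± 9.0 CPM in untreated knockout cells against 342 ± 158 CPM in untreated wild-type cells (SD, n = 2 each). No source used here places the counted 3′ reads inside or outside the deleted part, which makes the remaining counts a weak check of the deletion. The 10 macrophage markers, among them Adgre1, Csf1r and Cd68, summed to 4934 to 5736 CPM in knockout DI libraries, 7851 to 8070 CPM in untreated knockout libraries, 5724 to 6420 CPM in wild-type DI libraries and 6351 to 6834 CPM in untreated wild-type libraries. Of these 10, edgeR called 4 lower with DI in knockout cells, where 4% of all genes were called lower, and 4 lower with DI in wild-type cells, where 8.68% were. Markers of neutrophils summed to 223 to 349 CPM over all libraries, those of dendritic cells to 6.08 to 12.6 CPM, those of lymphocytes to at most 2.52 CPM and those of erythroid cells to at most 0.70 CPM. Markers of stromal cells summed to 42.9 to 47.8 CPM in knockout libraries and to 85.6 to 128 CPM in wild-type libraries, and all 4 tested ones were lower in knockout than in wild-type DI cells, where 9.74% of all genes were called lower. In bulk samples, fewer cells of a type and less RNA per cell cannot be told apart. The part of these marker shifts in the results on chaperones was not tested.

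The promoters of Hspa1a, Hspa1b and Hsph1 are shown because they hold matches to heat shock element units, the first pair for the members with the largest changes. Each stretch gives the 250 bases before the transcription start in the RefSeq promoter table (GRCm38.p6), 5′ to 3′ on the strand of the gene, with the match in capitals. Hspa1a lies at chr17:34972157-34972406 and Hspa1b at chr17:34959239-34959488, both on the minus strand, and the Hsph1 stretch lies at chr5:149636337-149636586 on the minus strand.
Hspa1a: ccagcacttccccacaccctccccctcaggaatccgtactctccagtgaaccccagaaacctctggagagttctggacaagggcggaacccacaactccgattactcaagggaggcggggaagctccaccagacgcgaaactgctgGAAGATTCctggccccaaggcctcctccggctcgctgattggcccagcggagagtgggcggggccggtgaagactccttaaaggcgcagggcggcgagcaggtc
Hspa1b: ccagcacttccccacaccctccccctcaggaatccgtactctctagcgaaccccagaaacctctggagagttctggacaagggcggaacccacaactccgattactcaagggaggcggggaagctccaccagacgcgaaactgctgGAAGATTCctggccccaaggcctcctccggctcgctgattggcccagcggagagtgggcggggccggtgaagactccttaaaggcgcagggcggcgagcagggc
Hsph1: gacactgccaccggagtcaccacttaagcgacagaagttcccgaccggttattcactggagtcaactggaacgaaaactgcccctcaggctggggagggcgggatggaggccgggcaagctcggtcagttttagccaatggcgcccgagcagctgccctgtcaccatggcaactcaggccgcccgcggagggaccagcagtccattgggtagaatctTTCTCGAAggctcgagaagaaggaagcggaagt

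RefSeq windows of 250 bases before to 50 bases after a start were matched for 7 of the 10 members, which excludes Hspa8, Hspa9 and Hspa13. The motifs searched on both strands were GAANNTTC and TTCNNGAA, which are the 2 arrangements of a pair of heat shock element units, and TGACNNNGC, the core of the antioxidant response element bound by NRF2. Across 32851 promoter windows, 7.86% held GAANNTTC, 8.52% held TTCNNGAA, 15.1% held either form and 12.4% held TGACNNNGC. Hspa1a and Hspa1b each had one GAANNTTC, with the letters GAAGATTC, at bases -104 to -97 from the start. Their stretches of 250 bases were 98.8% identical and differed by C44T, T47C and T249G, with positions counted from 1 at the 5′ end of the printed stretch, the Hspa1a base first and the Hspa1b base last. In Hsph1, TTCTCGAA lay at -33 to -26, and a TTCNNGAA and a GAANNTTC overlapped at 37 to 49 bases after the start as a run of 3 units, an arrangement that 0.603% of all windows held. The Hsph1 window also had TGACNNNGC matches at -132 to -124 and at -96 to -88. The GENCODE gene model of Hsph1 begins within the printed stretch, and RefSeq gives a further start for this gene nearby. The windows of Hspa2, Hspa4, Hspa4l and Hspa14 held none of these letters, which says nothing about binding elsewhere.

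**Figure D1:**
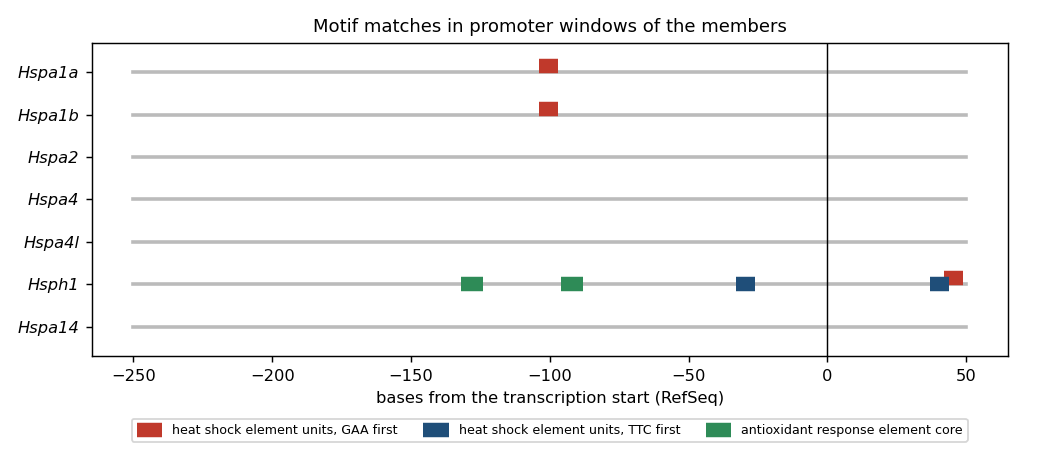
Matches to heat shock element units and to the antioxidant response element core, by distance in bases from the RefSeq transcription start, in the windows of the 7 members with an entry (for Hsph1, 1 of its 2 windows). Hspa1a and Hspa1b share a match at -104 to -97, Hsph1 holds 5 matches of which a pair overlaps after the start, and the other members hold none.

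In knockout cells, DI raised 8 of the 9 measured members, and lowered none, against a background of 4.49% of all 11079 genes called higher and 4% called lower in that comparison. The inducible Hspa1a and Hspa1b rose most, the constitutive Hspa8 and the HSP110 gene Hsph1 followed, and the increases of Hspa2, Hspa4, Hspa4l and Hspa9 were smaller. Hspa13 was not called. In wild-type cells, DI raised only Hspa1a and Hspa1b among the members, where 6.51% of all genes were called higher, and lowered Hspa2, where 8.68% of all genes were called lower. The median log2 fold change of the 9 members was 1.56 in knockout cells, where that of all genes tested was 0.005, and 0.30 in wild-type cells, where that of all genes tested was -0.02. The difference of the DI effect between knockout and wild-type cells, tested as the interaction of genotype and DI, was above 0 and called for 6 members and below 0 for none, against 4.96% and 2.59% of all genes. Calls are Benjamini-Hochberg adjusted p-values under 0.05 over all 11079 genes from edgeR's quasi-likelihood test, with each change given as a log2 fold change ± the standard error of the fit.

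**Figure D2:**
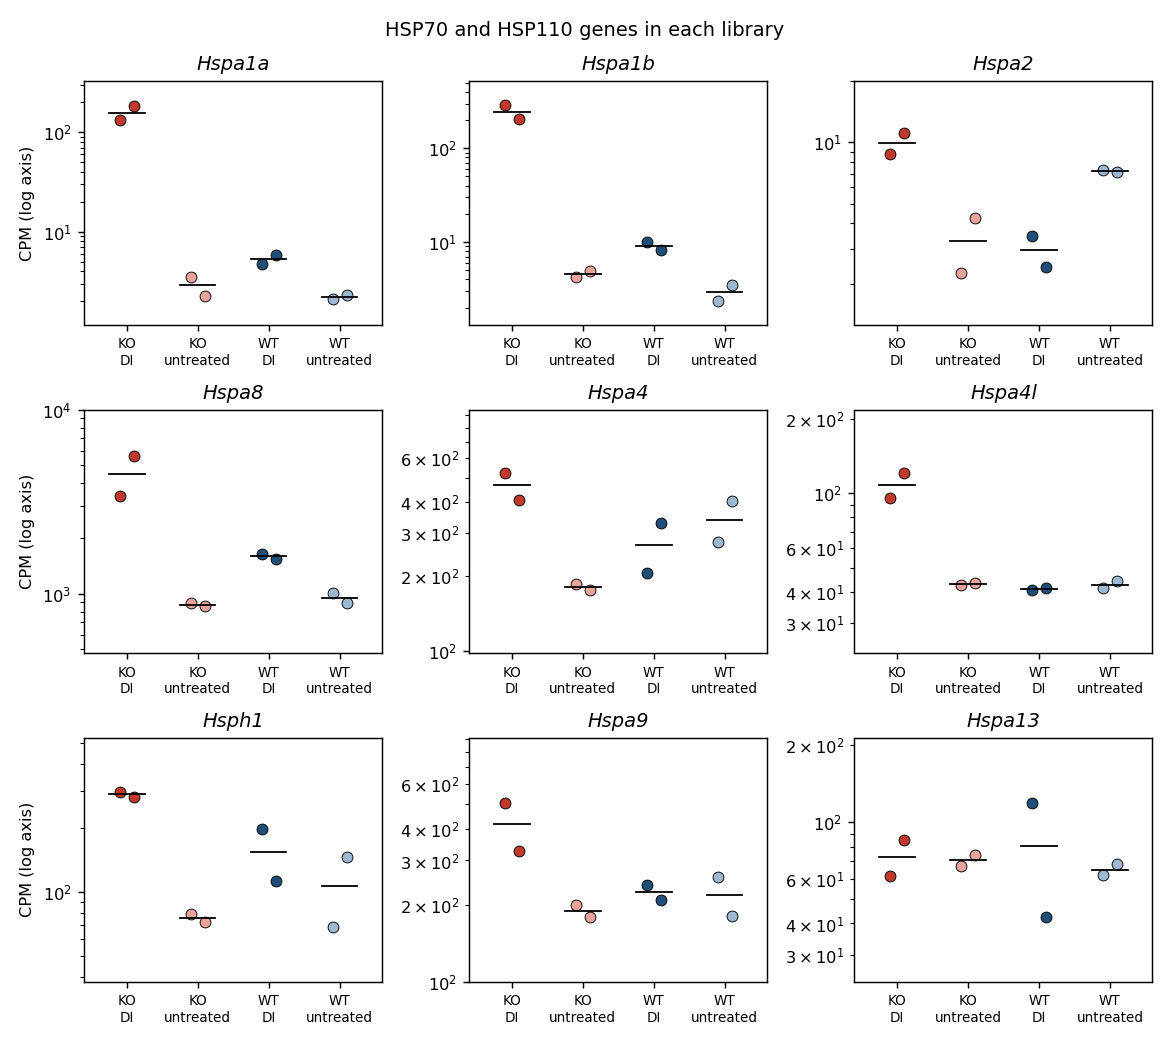
CPM of the 9 measured members in each library, on log axes that differ between panels, with points for the 2 libraries of a group and a line at their mean. In the Hspa1a and Hspa1b panels the knockout DI points lie far above the others, and in the Hspa13 panel the groups overlap.

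Hspa1a and Hspa1b encode the stress-inducible cytosolic HSP70 proteins and sit side by side on chromosome 17 of mm10, Hspa1a (ENSMUSG00000091971) at 34969190 to 34972156 and Hspa1b (ENSMUSG00000090877) at 34956436 to 34959238. Hspa1a had 132 and 181 CPM in knockout DI libraries against 3.50 and 2.28 CPM in untreated knockout libraries, and 4.71 and 5.87 CPM in wild-type DI libraries against 2.10 and 2.33 CPM in untreated wild-type libraries. The knockout DI libraries stood far above the other 6, and the wild-type DI libraries lay above all untreated libraries. The raw counts behind these levels were 1236 and 1784 in knockout DI libraries, 20 and 21 in untreated knockout libraries, 30 and 63 in wild-type DI libraries and 24 and 36 in untreated wild-type libraries. Hspa1a rose by 5.79 ± 0.31 in knockout cells (54.1-fold between means, edgeR adjusted p = 1.58e-06) and by 1.26 ± 0.31 in wild-type cells (edgeR adjusted p = 0.0177), and the effects differed by 4.53 ± 0.44 (edgeR adjusted p = 0.000283).

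Hspa1b had 289 and 203 CPM in knockout DI libraries against 4.20 and 4.88 CPM in untreated knockout libraries, and 9.90 and 8.29 CPM in wild-type DI libraries against 2.36 and 3.49 CPM in untreated wild-type libraries. As for Hspa1a, the groups with DI lay apart from the untreated libraries in both genotypes. Hspa1b rose by 5.74 ± 0.29 in knockout cells (54.2-fold, edgeR adjusted p = 1.58e-06) and by 1.61 ± 0.30 in wild-type cells (edgeR adjusted p = 0.0039), with a difference of 4.14 ± 0.42 (edgeR adjusted p = 0.000341). Ranked by the increase with DI in knockout cells, Hspa1a stood 6th and Hspa1b 8th of 11079 genes; in wild-type cells they stood 393rd and 239th.

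The 2 genes are near copies, with 99.4% identity over the coding sequence, so reads from the coding part could be split between them uncertainly. Over the last 500 bases of the transcripts, where 3′ reads are expected, the identity was 47%, and none of the 451 stretches of 50 bases there occurred in another GENCODE gene. With the counts of both genes summed, the change was 5.76 ± 0.24 in knockout cells (edgeR adjusted p = 4.44e-07) and 1.47 ± 0.24 in wild-type cells (edgeR adjusted p = 0.00174), and the difference was 4.29 ± 0.34 (edgeR adjusted p = 0.000159). The wild-type call of Hspa1a was lost without wild-type DI replicate 2, wild-type untreated replicate 1 or wild-type untreated replicate 2, with edgeR adjusted p up to 0.102, while that of Hspa1b held in all 8 fits that left out a library.

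Hspa8 (ENSMUSG00000015656, chromosome 9, 40800984 to 40810087) encodes the constitutive cytosolic HSC70, which folds new proteins, uncoats clathrin vesicles and takes part in chaperone-mediated autophagy. It had 3422 and 5589 CPM in knockout DI libraries against 889 and 855 CPM in untreated knockout libraries, and 1649 and 1546 CPM in wild-type DI libraries against 1009 and 896 CPM in untreated wild-type libraries. Within each genotype the DI libraries were above the untreated ones, and the knockout DI libraries were the highest of all. Hspa8 rose by 2.37 ± 0.25 in knockout cells (5.17-fold, edgeR adjusted p = 0.000938). In wild-type cells the change was 0.75 ± 0.25 with edgeR adjusted p = 0.0622 and was not called, although DESeq2 called it with adjusted p = 0.0299. The effects differed by 1.62 ± 0.35 (edgeR adjusted p = 0.0183), a call lost without either untreated knockout library or wild-type untreated replicate 1, with edgeR adjusted p from 0.0504 to 0.0862. Of 451 stretches of 50 bases at the end of the Hspa8 transcript, 369 (81.8%) also occurred in one or more of 11 processed pseudogene models, none of which is among the 22165 genes, so the counts of Hspa8 depend on how reads with several matches were handled.

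Hspa2 (ENSMUSG00000059970, chromosome 12, 76404176 to 76406938) encodes an HSP70 best known from male germ cells, where it is needed for meiosis. It had 8.75 and 11.1 CPM in knockout DI libraries against 2.27 and 4.23 CPM in untreated knockout libraries, and 3.46 and 2.42 CPM in wild-type DI libraries against 7.34 and 7.12 CPM in untreated wild-type libraries. The DI libraries were thus above the untreated ones in knockout cells and below them in wild-type cells, with no overlap in either genotype. Hspa2 rose by 1.56 ± 0.36 in knockout cells (edgeR adjusted p = 0.0203) and fell by 1.32 ± 0.36 on the log2 scale in wild-type cells (edgeR adjusted p = 0.0268), and the effects differed by 2.89 ± 0.51 (edgeR adjusted p = 0.00655). The levels rest on 13 to 110 counts per library. The rise was lost when any one of the 4 knockout libraries was left out (edgeR adjusted p from 0.0532 to 0.166), and the fall when any one of the 4 wild-type libraries was left out (edgeR adjusted p from 0.0555 to 0.169), whereas the difference of effects was called in all 8 such fits.

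Hspa4, Hspa4l and Hsph1 encode the HSP110-type proteins, which act as nucleotide exchange factors of HSP70 and help to take apart aggregates. Hsph1 (ENSMUSG00000029657, chromosome 5, 149614287 to 149636376), the heat-inducible HSP105, had 295 and 281 CPM in knockout DI libraries against 78.9 and 72.3 CPM in untreated knockout libraries, and 197 and 112 CPM in wild-type DI libraries against 68.3 and 146 CPM in untreated wild-type libraries. The groups were apart in knockout cells and overlapped in wild-type cells. Hsph1 rose by 1.93 ± 0.34 in knockout cells (edgeR adjusted p = 0.00864). The wild-type change was 0.53 ± 0.34 (edgeR adjusted p = 0.318), and the difference of effects, 1.40 ± 0.48, was not called (edgeR adjusted p = 0.0941); DESeq2 called it with adjusted p = 0.0413.

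Hspa4 (ENSMUSG00000020361, chromosome 11, 53259814 to 53300457) had 526 and 407 CPM in knockout DI libraries against 187 and 176 CPM in untreated knockout libraries, and 207 and 327 CPM in wild-type DI libraries against 274 and 404 CPM in untreated wild-type libraries. Hspa4 rose by 1.36 ± 0.28 in knockout cells (edgeR adjusted p = 0.0144). In wild-type cells its libraries overlapped and the change was -0.35 ± 0.28 (edgeR adjusted p = 0.430). The effects differed by 1.71 ± 0.39 (edgeR adjusted p = 0.0230).

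Hspa4l (ENSMUSG00000025757, chromosome 3, 40744495 to 40796103) had 95.4 and 121 CPM in knockout DI libraries, while the other 6 libraries lay between 40.7 and 44.1 CPM. It rose by 1.33 ± 0.21 in knockout cells (edgeR adjusted p = 0.00555). The wild-type change was -0.06 ± 0.21 (edgeR adjusted p = 0.887) and the effects differed by 1.39 ± 0.30 (edgeR adjusted p = 0.0189). The rise of Hspa4l was lost without either untreated knockout library, with edgeR adjusted p up to 0.0704. The rises of Hspa4 and Hsph1 were lost without knockout DI replicate 1 or either untreated knockout library, with edgeR adjusted p up to 0.121. The differences of effects of Hspa4 and Hspa4l were lost in 5 and 4 of the 8 fits that left out a library.

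Hspa9 encodes mortalin, the HSP70 of the mitochondrial matrix, which pulls proteins through the import channel. It had 506 and 326 CPM in knockout DI libraries against 200 and 180 CPM in untreated knockout libraries, and 240 and 210 CPM in wild-type DI libraries against 257 and 181 CPM in untreated wild-type libraries. Hspa9 rose by 1.13 ± 0.26 in knockout cells (edgeR adjusted p = 0.0237), a call lost without knockout DI replicate 1 (0.78, edgeR adjusted p = 0.172) or either untreated knockout library. Its wild-type libraries overlapped, with a change of 0.04 ± 0.26 (edgeR adjusted p = 0.937), and the difference of effects was 1.09 ± 0.37 (edgeR adjusted p = 0.0921). Hspa13 (ENSMUSG00000032932, chromosome 16, 75745431 to 75767104), a microsomal relative that lacks the substrate-binding part of other HSP70 proteins, had 61.4 and 85.0 CPM in knockout DI libraries against 67.2 and 74.0 CPM in untreated knockout libraries, and 118 and 42.6 CPM in wild-type DI libraries against 62.0 and 68.1 CPM in untreated wild-type libraries. Its 2 wild-type DI libraries were its highest and lowest, and its changes were 0.05 ± 0.37 in knockout cells (edgeR adjusted p = 0.947) and 0.30 ± 0.37 in wild-type cells (edgeR adjusted p = 0.616).

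**Figure D3:**
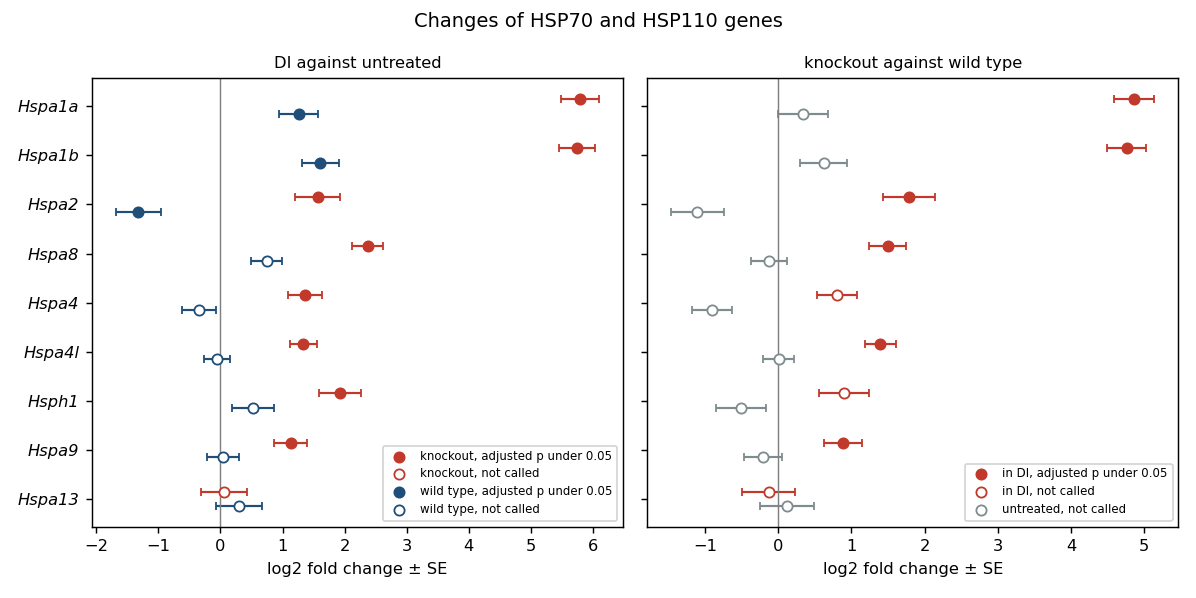
Log2 fold change ± standard error of each measured member for DI against untreated cells (left, knockout above wild type) and for knockout against wild type (right, DI-treated above untreated), with filled points for edgeR adjusted p under 0.05. The left panel shows 8 filled knockout points, and the right panel shows filled points only in DI-treated cells.

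Between DI-treated cells of the 2 genotypes, 6 of the 9 members were higher in knockout cells and none was lower, where 11.4% of all genes were called higher and 9.74% lower. Hspa1a was higher by 4.87 ± 0.27 (edgeR adjusted p = 8.95e-07), Hspa1b by 4.76 ± 0.27 (edgeR adjusted p = 1.03e-06), Hspa2 by 1.79 ± 0.36 (edgeR adjusted p = 0.00479), Hspa8 by 1.50 ± 0.25 (edgeR adjusted p = 0.00172) and Hspa4l by 1.39 ± 0.21 (edgeR adjusted p = 0.00102). Hspa9 was higher by 0.89 ± 0.26 (edgeR adjusted p = 0.0329), a call that was lost in 5 of the 8 fits without a library. The differences of Hspa4 (0.80 ± 0.28, edgeR adjusted p = 0.0565) and Hsph1 (0.90 ± 0.34, edgeR adjusted p = 0.0788) were not called by edgeR and were called by DESeq2, with adjusted p of 0.0298 and 0.0397. This comparison uses the same knockout DI libraries as that of DI against untreated knockout cells.

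In untreated cells, edgeR called 0 of the 9 members in either direction, where 0.0812% of all genes were called higher in knockout cells and 0.524% lower, and DESeq2 also called 0. At an unadjusted p under 0.05, edgeR gave 2 members, Hspa2 with -1.10 ± 0.36 (edgeR adjusted p = 0.238) and Hspa4 with -0.90 ± 0.28 (edgeR adjusted p = 0.213). The share of all genes at this unadjusted level was not counted, so these 2 do not set the members apart. The untreated libraries of Hspa2 and Hspa4 did not overlap between genotypes, and neither did those of Hspa1b and Hspa8. The share of all genes without overlap was not counted, so the lack of overlap does not set these members apart. Hspa1a differed by 0.34 ± 0.34 (edgeR adjusted p = 0.811), Hspa1b by 0.63 ± 0.32 (edgeR adjusted p = 0.537) and Hspa8 by -0.13 ± 0.25 (edgeR adjusted p = 0.913). The order of the group means for Hspa1a, Hspa1b and Hspa8 was knockout DI, wild-type DI and then the untreated groups, which were not told apart by the test.

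The libraries were primed with a run of T, for which A-rich stretches within a transcript are a possible second target. The DI changes of all genes moved with the A-richness of their coding sequence. The cause of this trend was not tested, and coding length was not separated from A-richness. Among the 2118 genes whose richest stretch holds 11 A in any 15 coding bases, the class of Hspa2, Hspa4, Hspa4l and Hsph1, the median change with DI was 0.18 in knockout cells and -0.23 in wild-type cells. Among the 1477 genes with 8 A there, the class of Hspa1a and Hspa1b, it was -0.17 in knockout cells and 0.18 in wild-type cells. In knockout cells the changes of Hspa1a and Hspa1b had the opposite sign to the median of their class, as had those of Hspa9 and Hspa13 (9 A, class median -0.11), while those of the HSP110 genes and Hspa2 had the same sign. In wild-type cells the changes of Hspa1a and Hspa1b, Hspa2, Hspa4 and Hspa4l had the same sign as their class median. So had those of Hspa9 and Hspa13 (class median 0.12), while that of Hsph1 had the opposite sign. Hspa8 (10 A) had the sign of its class median in both genotypes. The medians of its class were near 0, at 0.02 in knockout and 0.004 in wild-type cells. With this trend removed per library, an alternative chosen after the data were seen, 8 members were again called higher with DI in knockout cells. The differences of effects of Hspa4 (1.31, edgeR adjusted p = 0.0560) and Hspa4l (1.01, edgeR adjusted p = 0.0745) and the fall of Hspa2 in wild-type cells (-1.11, edgeR adjusted p = 0.0621) were no longer called.

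**Figure D4:**
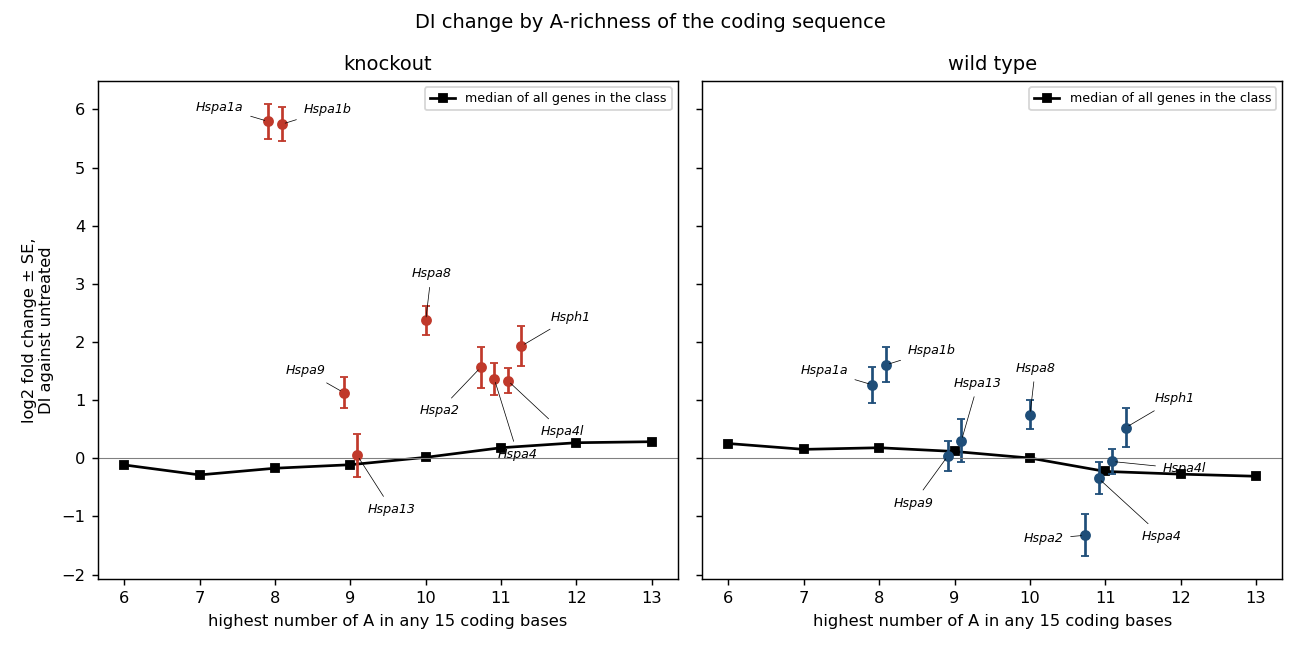
Log2 fold change ± standard error of the measured members for DI against untreated cells, by the highest number of A in any 15 coding bases, in knockout (left) and wild-type cells (right), with black squares for the median of all genes in each class of 20 or more genes. The medians climb to 0.28 at 13 A in knockout cells and drop to -0.31 in wild-type cells, and Hspa1a and Hspa1b, with 8 A, lie far above the median of their class in knockout cells.

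HSP40 proteins and other cochaperones of HSP70 were counted as the direct partners of the members. Of 17 listed genes 16 were tested, and DI raised 7 in knockout cells, where 4.49% of all genes were called higher. In wild-type cells it raised 3 and lowered 1, where 6.51% of all genes were called higher and 8.68% lower. Their median log2 change was 0.96 in knockout cells and 0.08 in wild-type cells. The difference of effects was above 0 and called for 5, where 4.96% of all genes were: Dnaja1, an HSP40 that stimulates the HSP70 ATPase (2.84 ± 0.50, edgeR adjusted p = 0.00743), Dnajc7, an HSP40 that also binds HSP90 (2.36 ± 0.46, edgeR adjusted p = 0.0109), St13, the HSP70-interacting protein HIP (2.28 ± 0.31, edgeR adjusted p = 0.00182), and the exchange factors Bag1 (1.52 ± 0.40, edgeR adjusted p = 0.0395) and Bag3 (1.51 ± 0.39, edgeR adjusted p = 0.0354). Of these 5, Bag1 was not called in knockout cells (0.57 ± 0.28, edgeR adjusted p = 0.227). It was the 1 gene of the list called lower in wild-type cells (-0.95 ± 0.28, edgeR adjusted p = 0.0413). The wild-type changes of Dnaja1 (-0.91 ± 0.35), Dnajc7 (-0.97 ± 0.32), St13 (-0.59 ± 0.22) and Bag3 (-0.07 ± 0.27) were below 0 and not called. In knockout cells the smallest p-values were those of St13, which rose by 1.69 ± 0.22, Dnaja1, which rose by 1.93 ± 0.36, and Bag3, which rose by 1.44 ± 0.27. In wild-type cells they were those of the HSP40 genes Dnajb4 and Dnajb1 and of the exchange factor Bag2. Dnajb4 rose by 1.47 ± 0.23 and Dnajb1 by 1.13 ± 0.23, and the change of Bag2 was 2.42 ± 0.59. Bag2, 1 of the 3 called higher there, had 47 counts in wild-type DI cells and 13 in untreated wild-type cells. Its untreated libraries were at or below 0.70 CPM. It passed the filter on low counts through its DI groups alone, so its call is no support for a rise. Dnajb1 and Dnajb4 also rose in knockout cells, by 0.93 ± 0.24 (edgeR adjusted p = 0.0319) and 0.99 ± 0.24 (edgeR adjusted p = 0.0271). Their differences of effects, -0.20 ± 0.33 and -0.48 ± 0.33, were not called (edgeR adjusted p = 0.736 and 0.380). Between DI-treated cells, 4 of the 16 were higher in knockout cells and 1 was lower, where 11.4% of all genes were called higher and 9.74% lower.

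Chaperones of organelles, among them partners of Hspa9 and of Hspa5, were counted next. Of 14 such genes, all tested, 1 rose with DI in knockout cells, the mitochondrial chaperonin Hspd1 (1.41 ± 0.28, edgeR adjusted p = 0.0135), and edgeR called 0 in wild-type cells in either direction, where 3 had an unadjusted p under 0.05. The counts of calls are near the shares of all genes called, 4.49% higher in knockout cells and 6.51% higher and 8.68% lower in wild-type cells. For the 3 at an unadjusted p, no share of all genes was counted. Hspa5, which folds secreted proteins, averaged 1201 ± 120 CPM in knockout DI cells against 1065 ± 297 CPM in untreated knockout cells, and 782 ± 265 CPM in wild-type DI cells against 1237 ± 304 CPM in untreated wild-type cells (SD, n = 2 each). Its changes were 0.17 ± 0.29 in knockout cells (edgeR adjusted p = 0.747) and -0.66 ± 0.29 in wild-type cells (edgeR adjusted p = 0.146). Hyou1, its HSP110-type partner, changed by 1.07 ± 0.48 in knockout cells (edgeR adjusted p = 0.183) and by -0.98 ± 0.48 in wild-type cells (edgeR adjusted p = 0.189). Hspa1l, the germ cell HSP70 next to Hspa1a, had 92 and 42 counts in knockout DI libraries and 3 to 27 counts in the other 6 libraries. It rose by 2.72 ± 0.74 in knockout cells (edgeR adjusted p = 0.0366), while the difference of effects, 3.70 ± 1.07, was not called (edgeR adjusted p = 0.0505). Hspa12a and Hspa12b had at most 6 counts in a group and were not tested.

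Heat shock factors and other chaperones outside the family included genes called in both genotypes. Of 17 listed genes 14 were tested, and DI raised 6 in knockout cells and 3 in wild-type cells, where 4.49% and 6.51% of all genes were called higher. The edgeR test called a difference of effects for 0 of them, where 4.96% of all genes were called above 0 and 2.59% below 0. At an unadjusted p under 0.05 there were 4, and the share of all genes at that level was not counted. Their median log2 change was 0.78 in knockout cells and 0.58 in wild-type cells. Hspb1, the small heat shock protein HSP27, rose by 2.60 ± 0.48 in knockout cells (edgeR adjusted p = 0.00816) and by 1.57 ± 0.41 in wild-type cells (edgeR adjusted p = 0.0241). These changes of Hspb1 rest on few counts, 151 with DI against 19 untreated in knockout cells and 108 against 53 in wild-type cells. Hsp90aa1, the inducible cytosolic HSP90, rose by 1.19 ± 0.24 in knockout cells (edgeR adjusted p = 0.0134) and by 1.14 ± 0.24 in wild-type cells (edgeR adjusted p = 0.00772), and its effects differed by 0.05 ± 0.33 (edgeR adjusted p = 0.934). Ahsa2, an HSP90 cochaperone, rose by 1.75 ± 0.27 in knockout cells (edgeR adjusted p = 0.00514). In wild-type cells Ahsa2 averaged 20.1 CPM with DI against 12.4 CPM untreated. Fkbp4, a cochaperone of HSP90 that carries a peptidyl-prolyl isomerase domain, rose by 0.78 ± 0.24 in wild-type cells (edgeR adjusted p = 0.0457). In knockout cells Fkbp4 averaged 29.5 CPM with DI against 20.8 CPM untreated. Hsf1 itself changed by -0.35 ± 0.33 in knockout cells (edgeR adjusted p = 0.527) and by 0.44 ± 0.32 in wild-type cells (edgeR adjusted p = 0.381). HSF1 acts after release from chaperones, so its transcript level does not measure its activity.

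**Figure D5:**
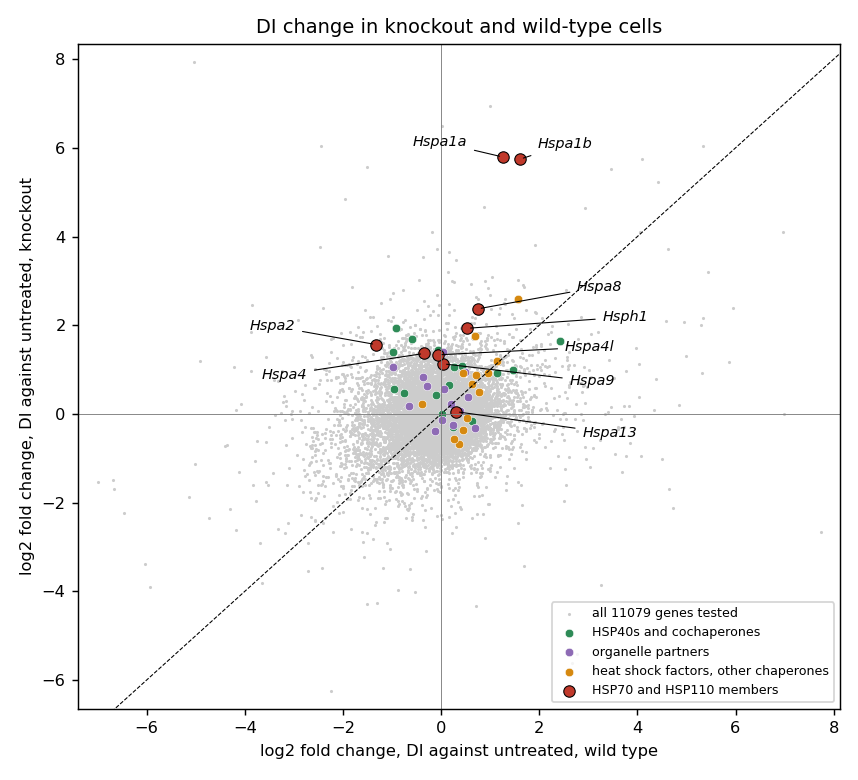
Log2 fold change of DI against untreated cells in knockout (vertical) and wild-type cells (horizontal) for all 11079 genes tested, with the 9 members named and the 3 lists of partner and other chaperone genes coloured; the dashed line marks equal change. Hspa1a and Hspa1b lie near 5.8 on the vertical axis and between 1.2 and 1.7 on the horizontal one, and 8 of the 9 members lie above the dashed line.

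Genes whose levels followed those of single members over the 8 libraries were sought among 7475 tested genes outside the members. These genes had a mean of at least 10 CPM, and the measure was the root mean square difference of centred log2(CPM + 1). The nearest to Hspa8 was Ppp1r15a, the GADD34 subunit that directs a phosphatase to eIF2α, at 0.21, followed by the EGF-family growth factor Hbegf at 0.33 and the stress-induced pseudokinase Trib3 at 0.38. The nearest to Hsph1 were Phlda1 at 0.28, Adss at 0.31 and Ppp1r15a at 0.34. The nearest to Hspa1a, the neutrophil-attracting chemokine Cxcl2 at 1.40 and Ppp1r15a at 1.49, were much less close, whereas Hspa1a and Hspa1b differed from each other by 0.36. Among the members, Hspa8 differed from Hspa1a by 1.40, as did Cxcl2. Ppp1r15a rose by 2.25 in knockout cells (edgeR adjusted p = 0.000938) and by 0.78 in wild-type cells (edgeR adjusted p = 0.0416). Slc25a33 and Rapgef5 at 0.39 each came next for Hspa8, Slc5a3 and Mgme1 at 0.35 each for Hsph1, and Slc5a3, Rnd3 and Klf4 at 1.52 to 1.56 for Hspa1a. Likeness over 8 libraries of 4 groups is a description of these levels and says nothing of shared control.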

How the data were processed

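Counts were deposited by the authors as whole reads for each Ensembl gene, one column a library, unnormalized. Per the labels' protocols, cDNA was primed with oligo-dT carrying a barcode, libraries were pooled by Actb level, amplified in 12 PCR cycles and strand-specific, and no molecular identifier is described, so duplicate reads count as separate. Per the submitters' processing notes, mm10, STAR, HTSeq and DESeq2 were used; versions and counting settings are not given there.

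Identifiers were matched to GENCODE M21 (21745 of 22165 genes). Genes were filtered with edgeR 4.0.16 (R 4.3.3; filterByExpr, minimum count 10) and scaled by TMM. The robust quasi-likelihood test was fitted over all 8 libraries with 1 mean per group and Benjamini-Hochberg adjustment (threshold 0.05). DESeq2 1.42.0, other scalings and filters, a replicate block and fits without each library were alternatives. Scripts were tested on simulated data. Every member is named; of each partner list, genes with a called interaction, up to 3 genes with the smallest p per DI comparison, and Hspa5, Hyou1, Hspa1l and Hsf1, chosen after their values were seen. Members, lists and motifs were chosen with earlier results of these data known.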

Additional observations from a re-analysis of the deposited data

Results flagged for a closer look

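The effect of DI differed between knockout and wild-type cells for 6 members by the interaction term of edgeR's quasi-likelihood test. All 6 were above 0, where 4.96% of all genes were called above 0. The effect in knockout cells minus that in wild-type cells was 4.53 for Hspa1a, 4.14 for Hspa1b, 2.89 for Hspa2, 1.71 for Hspa4, 1.39 for Hspa4l and 1.62 for Hspa8, all on the log2 scale. Hspa1a and Hspa1b moved in the same direction in both genotypes, while Hspa2 moved in opposite directions. Groups of 2 libraries are too small for a check of single outlying libraries.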

How the results depend on the processing

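Of the 10 counts of members called, those of DI in knockout cells (8 higher), of the interaction (6 higher) and of knockout against wild type in DI (6 higher) stayed within 1.5 times under the other scalings and filters, the non-robust fit, DESeq2, the summed copies and the removed A-rich trend. The interaction count was 4 with that trend removed. In wild-type cells 1 member was called higher with Hspa1a and Hspa1b summed, which makes them 1 gene, and 0 were called lower with the A-rich trend removed. With every gene with a count kept, 1 member, Hspa4 (-0.91, edgeR adjusted p = 0.0237), was called lower in untreated knockout cells; the cause was not tested. Without 1 library, 3 to 8 members were called higher with DI in knockout cells (4 without knockout DI replicate 1, 3 without knockout untreated replicate 1 or 2), 1 to 3 higher and 0 to 1 lower in wild-type cells, and 3 to 7 in the interaction (3 without knockout untreated replicate 1 or 2). Hspa1a, Hspa1b and Hspa8 kept their knockout call in all 8 such fits.

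Over all genes, 497 were called higher with DI in knockout cells, 1029 with every gene with a count kept and 29 to 598 without 1 library; in untreated cells 9 were higher and 58 lower in knockout, 36 and 155 by DESeq2, 72 and 325 with every gene with a count kept, and 1 and 10 without knockout untreated replicate 1. With total counts only, DI in wild-type cells gave 557 higher and 1208 lower in place of 721 and 962, and knockout against wild type in DI gave 1621 and 850 in place of 1266 and 1079.

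Some uncalled changes turned sign. Not all of these were near 0 in the main fit, such as Hsph1 between untreated genotypes (-0.51) and Hspa13 in wild-type cells (0.30). With total counts only, the median change of all genes was -0.104 in place of -0.0173 for DI in wild-type cells and 0.121 in place of 0.015 for knockout against wild type in DI, and Hspa9 was at -0.0535 in wild-type cells. With the A-rich trend removed, Hspa4l was at 0.16 and Hspa9 at -0.0632 in wild-type cells, and Hspa13 at 0.0620 for knockout against wild type in DI. Without 1 library, the ranges were -0.20 to 0.27 for Hspa13 with DI in knockout cells, -0.57 to 0.89 for Hspa13 and -0.20 to 0.31 for Hspa9 in wild-type cells, -0.83 to 0.63 for Hspa13 in the interaction, -0.71 to 0.76 for Hspa13 between DI-treated genotypes, and -0.0421 to 0.0508 for Hspa4l, -0.44 to 0.0674 for Hspa9 and -0.95 to 0.14 for Hsph1 between untreated genotypes.

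With the replicate block, 8 members were called higher with DI in knockout cells, 2 higher and 1 lower in wild-type cells, 6 in the interaction and 6 for knockout against wild type in DI, as without it. Deviations of libraries with the same number correlated at -0.10 to 0.19 between groups, highest between wild-type DI and untreated wild-type libraries. With 2 libraries a group, this check cannot tell whether the numbers pair the libraries. Outside the knockout DI libraries, Hspa1a had 20 to 63 counts per library, and each group had 2 libraries, which limits the precision of its wild-type change; the smallest detectable change was not computed.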
